A study of Mus musculus with 25 samples.

Results

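Imprinted genes are transcribed mainly from the copy inherited from 1 parent. The 42 genes described here were chosen by symbol as known imprinted mouse genes, and all 42 have a row among the 24421 genes of the authors' deposited tables. The choice was made with results of these same comparisons known (Nnat, Peg3 and Calcr had already been seen to differ), so the values and counts below describe the data and give no independent support. By textbook knowledge 24 of them were classed as paternally expressed, 13 as maternally expressed and 5 as dependent on isoform or tissue. Each gene has 1 class throughout, which need not hold in every cell type, and the copy used in this tissue was not measured.

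The parental mark is DNA methylation laid down in the germ line at control regions, and most imprinted genes lie in clusters that share such a region. In the brain the paternally expressed genes Peg3, Magel2 and Ndn are known for roles in neurons that govern feeding, growth and maternal care, and the maternally expressed Calcr encodes the calcitonin receptor, which forms the core of the amylin receptor, an appetite-suppressing pathway. Several clusters pair paternally expressed protein-coding genes with maternally expressed noncoding RNAs, as Dlk1 with Meg3.

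Poly(A) RNA was sequenced from the hypothalamus of 25 wild-type C57BL/6J mice aged 3 months. Their dams ate a hypercaloric diet (HCD, 52% fat with high sucrose) or regular chow (RD), starting 1 month before mating and lasting through lactation, and the offspring of each sex were weaned onto HCD or RD. The 8 groups held 3 mice each, except 4 RD-weaned males of RD dams. The 4 comparisons set offspring of HCD dams against offspring of RD dams within HCD-weaned males, HCD-weaned females, RD-weaned males and RD-weaned females, and share no sample.

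Whether mice of a group were littermates is not in the labels, and a p-value measures only the spread between these samples. The names of the deposited library columns match no label, so values by mouse are not given, and each gene is described by the authors' mean normalized count, log2 fold change and standard error. A negative fold change was read as lower in offspring of HCD dams. For the RD-weaned tables only the order of the group names gives that reading, and if it is wrong all signs of a table turn together. Mean counts of Xist were 3.33 and 0.447 in the deposited tables of males and 3893 and 5611 in those of females, and Ddx3y was at 1054 and 493 in males and at most 0.194 in females, as the labels give the sexes. The deposited comparisons name their groups by codes. Xist and Ddx3y check the sex read for a code and not the maternal or weaning diet read for it.

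Promoter windows show where the called genes start and how rich in CpG those starts are. RefSeq windows (GRCm38.p6, from 250 bases before to 50 after an annotated start) were found for 34 of the 42 genes, 51 windows in all. Each was searched on both strands for TGCCGC, the core letters known to be bound by ZFP57 when methylated, and for the YY1 motif GCCATNTT; neither motif contains the other. TGCCGC occurred in 15 of 51 windows (29.4%) and in 11.6% of all 32851 windows of that length, and GCCATNTT in 2 (3.92%) and 6.05%. Windows were counted as listed, so some sequence counts more than once. Snrpn and Snurf share an identical window with TGCCGC, and Mest has overlapping windows that hold it. The median number of CpG was 14 in the windows of imprinted genes and 7 over all windows. TGCCGC itself contains a CpG, and its share over all windows was not matched for CpG, so nothing is read from the difference. Below, 1 window is shown for each gene called in a comparison that has one, 5′ to 3′ on the gene's strand, with TGCCGC or its reverse complement GCGGCA in capitals. For Calcr and Meg3, which have more than 1 window, the one holding these letters is printed.
Nnat, chr2:157559828-157560127, plus strand: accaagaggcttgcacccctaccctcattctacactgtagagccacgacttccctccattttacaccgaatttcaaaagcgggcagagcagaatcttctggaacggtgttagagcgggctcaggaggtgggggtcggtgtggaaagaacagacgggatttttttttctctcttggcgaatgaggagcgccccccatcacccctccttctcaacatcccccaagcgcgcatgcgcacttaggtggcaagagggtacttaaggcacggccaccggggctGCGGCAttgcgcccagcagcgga
Dlk1, chr12:109452573-109452872, plus strand: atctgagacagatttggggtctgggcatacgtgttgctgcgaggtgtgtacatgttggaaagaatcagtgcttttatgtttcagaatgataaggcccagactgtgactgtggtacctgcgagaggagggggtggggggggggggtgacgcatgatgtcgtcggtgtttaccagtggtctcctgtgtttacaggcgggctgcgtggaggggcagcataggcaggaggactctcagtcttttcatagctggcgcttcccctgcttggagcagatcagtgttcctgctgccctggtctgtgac
Meg3, chr12:109540746-109541045, plus strand: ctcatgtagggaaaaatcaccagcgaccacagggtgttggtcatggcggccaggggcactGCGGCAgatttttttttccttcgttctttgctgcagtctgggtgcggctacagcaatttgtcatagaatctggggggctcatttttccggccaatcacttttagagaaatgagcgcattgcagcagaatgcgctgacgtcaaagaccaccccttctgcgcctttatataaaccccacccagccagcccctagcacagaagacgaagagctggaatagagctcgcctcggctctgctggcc
Peg3, chr7:6730370-6730669, minus strand: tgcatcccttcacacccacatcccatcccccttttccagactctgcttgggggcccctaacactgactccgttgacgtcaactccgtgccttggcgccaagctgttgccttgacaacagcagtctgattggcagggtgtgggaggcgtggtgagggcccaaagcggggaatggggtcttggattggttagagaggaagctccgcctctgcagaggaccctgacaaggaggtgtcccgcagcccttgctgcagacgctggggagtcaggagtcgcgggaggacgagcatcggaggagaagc
Calcr, chr6:3763574-3763873, minus strand: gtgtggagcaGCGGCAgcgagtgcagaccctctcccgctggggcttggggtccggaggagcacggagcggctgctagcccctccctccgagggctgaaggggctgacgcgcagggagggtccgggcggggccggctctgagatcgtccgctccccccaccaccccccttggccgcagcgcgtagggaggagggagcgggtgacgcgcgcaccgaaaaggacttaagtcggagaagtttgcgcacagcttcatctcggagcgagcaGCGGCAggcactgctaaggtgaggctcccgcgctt
The windows held 17 CpG for Nnat, 9 for Dlk1, 13 for Meg3, 13 for Peg3 and 29 for Calcr. The Peg3 window shares 263 bases with that of Usp29, which is transcribed the other way from the same start region. A match of letters describes the window and marks no binding site.

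The 42 genes together made up 6496 to 7076 CPM (normalized counts scaled to a common library total) in the 4 deposited tables. Per kilobase of the longest annotated transcript, Nnat, a small membrane protein of the endoplasmic reticulum, stood at 325 to 604 CPM, and Gnas, the stimulatory G protein subunit, at 476 to 586. Nap1l5, a nucleosome assembly protein-like gene, stood at 284 to 343. Nnat and Gnas changed places between comparisons, and Nap1l5 came after both in all 4. Ndn, encoding the growth suppressor necdin, was at 112 to 144 per kilobase. The noncoding Rian was at 52 to 80, and Meg3 at 43 to 62. Peg3, a zinc finger protein, was at 9.8 to 22.9, Dlk1, a membrane protein of the Notch ligand family, at 7.6 to 13.5, and Peg10, a gene derived from a retrotransposon, at 6.7 to 9.8. Calcr was far lower at 0.48 to 0.82, so its values rest on mean counts of only 27.8 to 72.3. Snurf was listed at 0 in all 4 deposited tables, where its reading frame lies within Snrpn, and Phlda2 and H19 had mean counts below 10 in all 4.

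**Figure D1:**
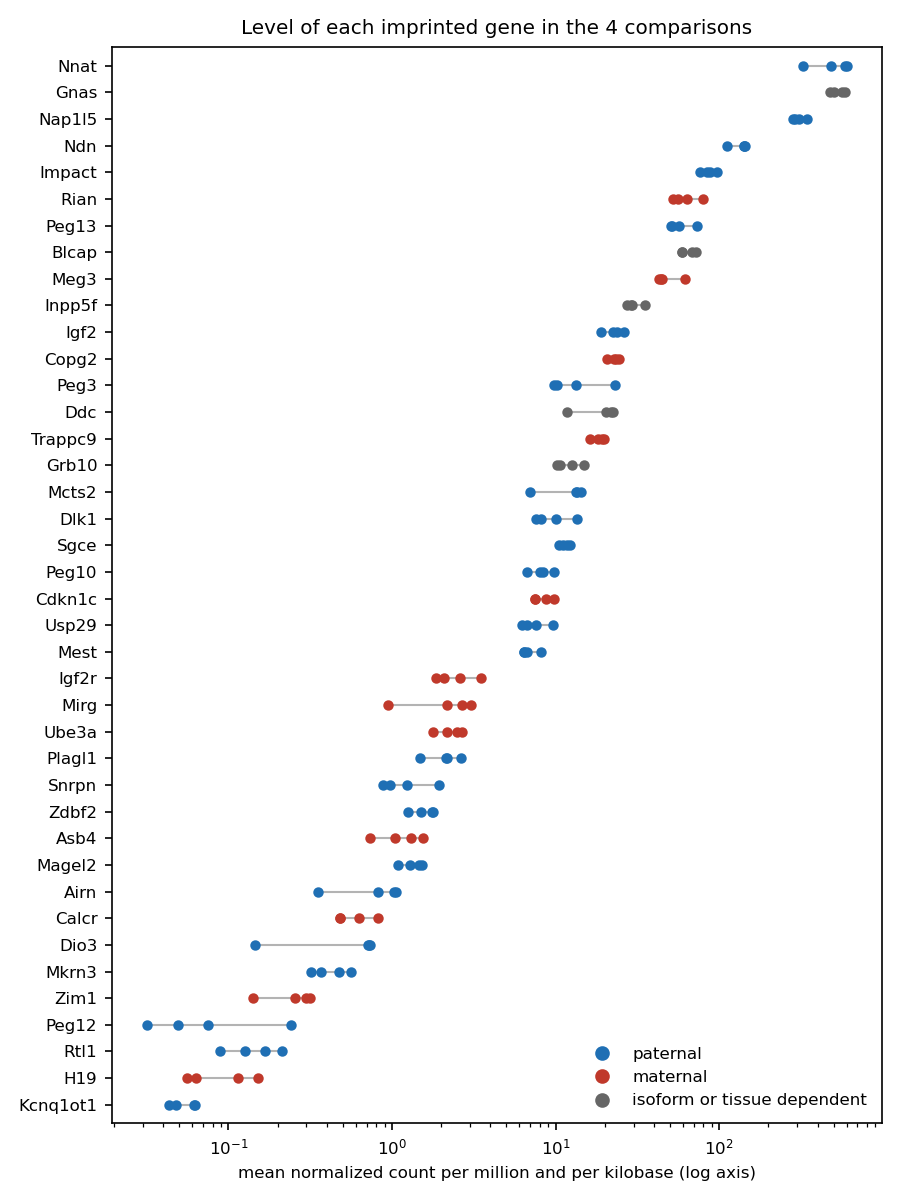
Level as CPM (from mean normalized counts) and per kilobase of longest transcript (log axis) of the imprinted genes, with 1 point for each of the 4 comparisons and a line joining the lowest and highest; blue genes are paternally, red maternally expressed, grey depend on isoform or tissue. Nnat, Gnas and Nap1l5 lie at the top and Calcr among the lowest; Snurf and Phlda2, at 0 in at least 1 comparison, are not drawn.

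Among paternally expressed genes, Nnat fell in both RD-weaned comparisons. In the deposited table of RD-weaned females its mean count was 20614 and its log2 fold change -1.19 ± 0.24 (SE; 2.29-fold lower, adjusted p = 0.00113). For RD-weaned males the authors' deposited table gave a mean of 7252 and -0.90 ± 0.22 (1.86-fold lower, adjusted p = 0.0495). The deposited values in the HCD-weaned offspring were -0.66 ± 0.23 in females (adjusted p = 0.109) and -0.12 ± 0.26 in males (adjusted p = 0.925). All 4 values were negative, and the one in HCD-weaned males was smaller than its standard error. Nnat lies inside an intron of Blcap, transcribed from the opposite strand; Blcap had -0.21 for RD-weaned females and -0.08 for RD-weaned males in the deposited tables, and was called in none.

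Peg3 fell in HCD-weaned females, where the authors' deposited table gave a mean count of 1931 and a log2 fold change of -1.78 ± 0.39 (3.44-fold lower, adjusted p = 0.0025). That was the lowest value of any imprinted gene in the 4 comparisons. The deposited fold changes elsewhere were -1.08 ± 0.31 for HCD-weaned males (adjusted p = 0.134), -0.86 ± 0.29 for RD-weaned females (adjusted p = 0.274) and -0.33 ± 0.45 for RD-weaned males (adjusted p = 1.00). Peg3 was thus below 0 by more than 2 standard errors in 3 comparisons and called in 1.

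Peg10 fell in HCD-weaned males: the deposited table gave a mean count of 1762 and a log2 fold change of -1.26 ± 0.29 (2.39-fold lower, adjusted p = 0.0147). The other deposited values were -0.60 ± 0.35 for HCD-weaned females (adjusted p = 0.463), -0.53 ± 0.26 for RD-weaned females (adjusted p = 0.769) and -0.05 ± 0.37 for RD-weaned males (adjusted p = 1.00). Dlk1 fell in RD-weaned females, at -1.12 ± 0.30 with a mean count of 828 (2.17-fold lower, adjusted p = 0.0479) in the deposited table. Its remaining deposited values were -0.74 ± 0.45 for RD-weaned males (adjusted p = 1.00), -0.40 ± 0.26 for HCD-weaned males (adjusted p = 0.691) and -0.12 ± 0.39 for HCD-weaned females (adjusted p = 0.972).

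Of the maternally expressed genes, Calcr fell in 2 comparisons that differ in both sex and postnatal diet. In HCD-weaned males the authors' deposited table gave a mean count of 63.3 and a log2 fold change of -1.61 ± 0.33 (3.06-fold lower, adjusted p = 0.00191). In RD-weaned females it gave 72.3 and -1.20 ± 0.28 (2.30-fold lower, adjusted p = 0.0128). The deposited value was -0.22 ± 0.40 for HCD-weaned females (adjusted p = 0.943) and -0.18 ± 0.30, with no p-value, in RD-weaned males. Meg3, a long noncoding RNA with very high counts (9877 to 21219 on average), fell in HCD-weaned females at -0.66 ± 0.17 in the deposited table (1.58-fold lower, adjusted p = 0.0202); with the trend of fold change with transcript length removed, that value was -0.18 and the call was lost (adjusted p = 0.346). It had -0.88 ± 0.25 for RD-weaned females (adjusted p = 0.0929), -0.61 ± 0.26 for HCD-weaned males (adjusted p = 0.536) and -0.48 ± 0.44, with no p-value, in RD-weaned males of the deposited tables. In bulk tissue, fewer cells of a type that expresses a gene and less RNA per cell cannot be told apart, for these and all values below.

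**Figure D2:**
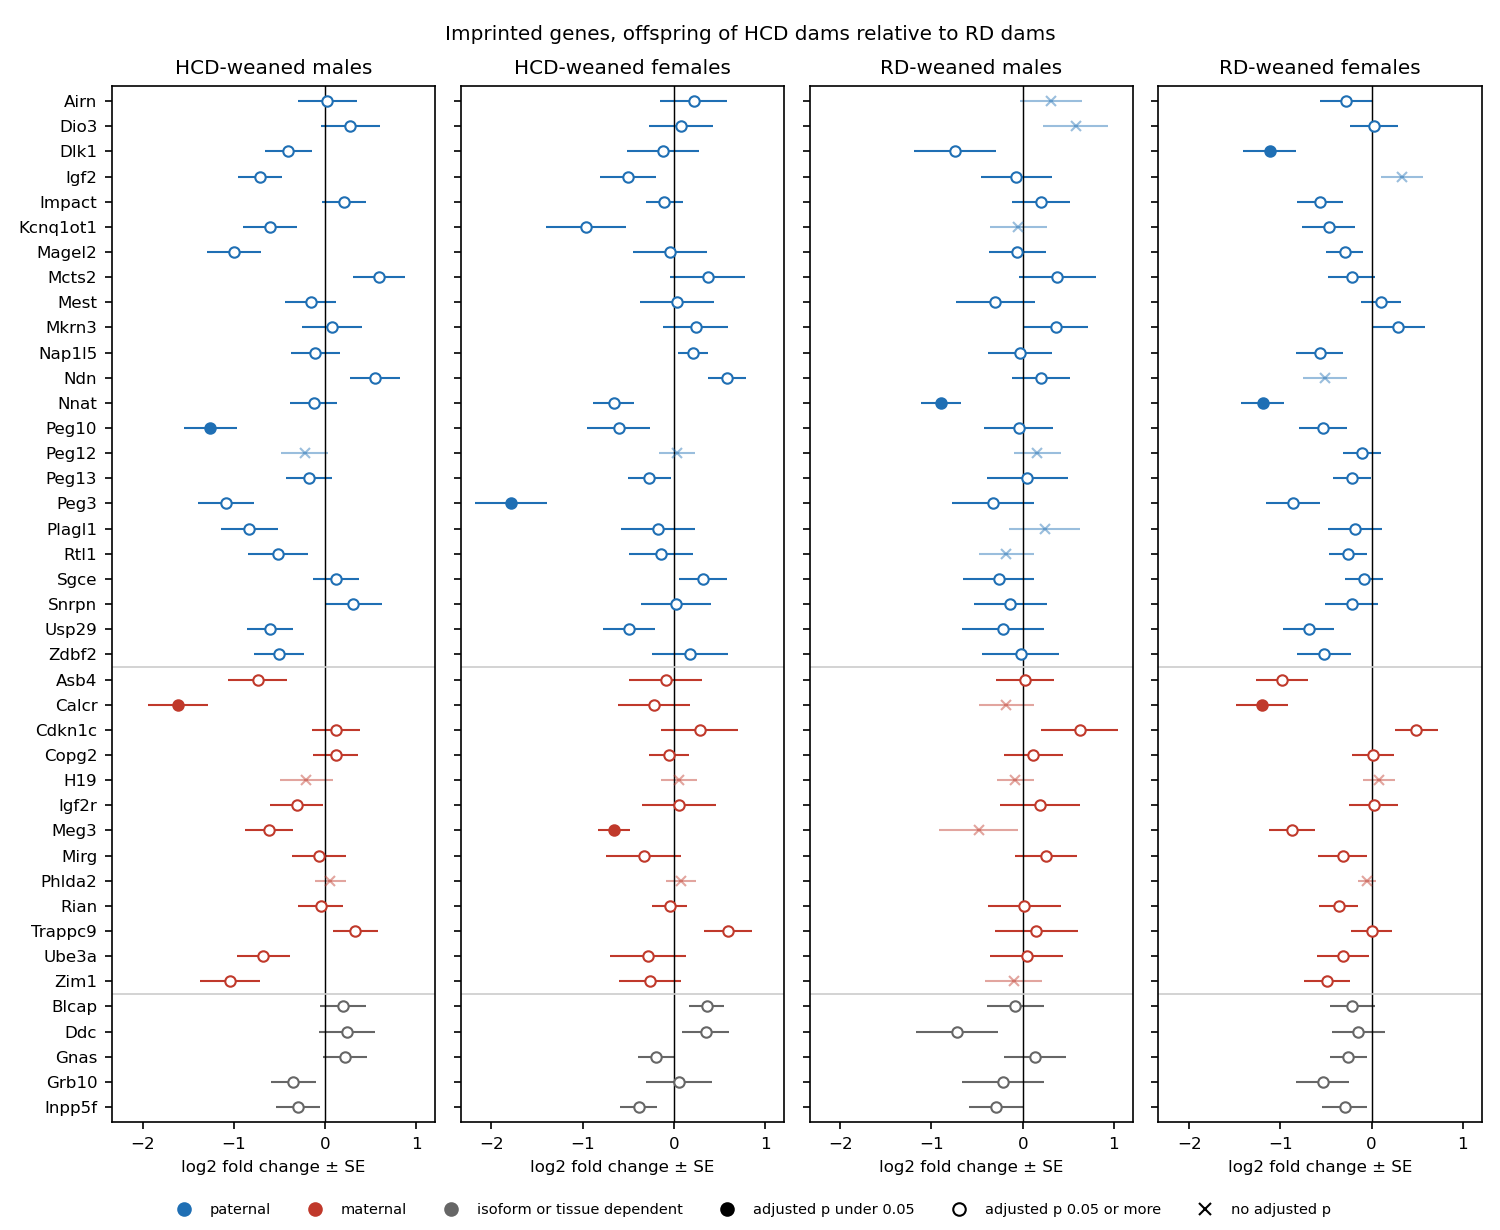
Log2 fold change (offspring of HCD dams relative to RD dams) with its standard error for each imprinted gene in the 4 comparisons, ordered by expressed copy; filled circles have an adjusted p under 0.05, open circles 0.05 or more, and crosses have none. All filled circles (Calcr and Peg10, Meg3 and Peg3, Nnat, and Calcr, Dlk1 and Nnat, from left to right) lie left of 0.

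Counted over the list, 38 genes had an adjusted p in HCD-weaned males, of which 2 were called, against 0.163% of all 15384 genes tested in that deposited table. In HCD-weaned females 2 of 38 were called, against 1.52% of 15043. For RD-weaned males the deposited table gave 1 call among 30, against 0.0851% of 12920, and for RD-weaned females 3 of 37, against 0.346% of 15028. Every one of these 8 calls was negative as read. Calls would be positive in any table whose direction is the other way. The 4 from the RD-weaned tables have only the order of the group names behind their sign. Because the genes were chosen with these tables known, nothing is read from these shares. Members without an adjusted p were those with a mean count under 10 (4, 4, 6 and 3 in the order above) and, in RD-weaned males and females, a further 6 and 2 that the authors' tables left without one, among them Meg3 and Calcr in males and Igf2 and Ndn in females.

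At an unadjusted p under 0.05 the deposited tables held 14 of 38 genes in HCD-weaned males (12 of them negative; 8.14% of all genes tested), 6 of 38 for HCD-weaned females (4 negative; 13.3%), 1 of 30 for RD-weaned males (4.3%) and 12 of 37 for RD-weaned females (11 negative; 6.16%). Fold changes below 0 were found for 24 of 38 genes in HCD-weaned males (51.1% of all genes), 22 of 38 for HCD-weaned females (45.6%), 16 of 30 for RD-weaned males (50%) and 30 of 37 for RD-weaned females (49.1%). The median log2 fold change was -0.17, -0.07, -0.02 and -0.29 in the same order, where all genes tested had -0.01, 0.04, 0.00 and 0.01. As read, RD-weaned females had the most members below 0 and the lowest median; with the sign of that table turned, 7 of 37 would be below 0 and the median would be the highest.

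The parental copy did not separate the genes that were called, since both classes hold some. Paternally expressed genes were below 0 in 14 of 22, 12 of 22, 12 of 17 and 18 of 21 of the deposited tables' tested members, in the order HCD-weaned males, HCD-weaned females, RD-weaned males and RD-weaned females, with medians of -0.17, -0.07, -0.06 and -0.28. Maternally expressed genes were below 0 in 8 of 11, 8 of 11, 0 of 8 and 7 of 11, with medians of -0.31, -0.09, 0.13 and -0.32. The classes lay furthest apart in RD-weaned males, where no tested maternally expressed gene had a negative value in the deposited table, though 4 without an adjusted p did and the largest positive one, Cdkn1c, had 0.62 ± 0.43 (adjusted p = 1.00). The 5 genes with an isoform- or tissue-dependent copy (Grb10, Gnas, Ddc, Blcap and Inpp5f) were called in no deposited table, and had medians of 0.20, 0.06, -0.22 and -0.26.

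The proximal cluster of chromosome 6 holds Calcr (3685680 to 3764714 in GRCm38, by the GENCODE annotation), Sgce (4674350 to 4747207), Peg10 (4747306 to 4760517) and Asb4 (5383386 to 5433022). Sgce encodes epsilon-sarcoglycan and is transcribed away from Peg10 from a neighbouring start. While Peg10 fell in HCD-weaned males, Sgce had 0.12 ± 0.25 there; its other deposited values were 0.32 ± 0.27 for HCD-weaned females, -0.26 ± 0.39 for RD-weaned males and -0.08 ± 0.21 for RD-weaned females. Only the value of Sgce in HCD-weaned females exceeded its standard error, and the gene was called nowhere. Asb4, which encodes a substrate adaptor of ubiquitin ligases and is expressed from the maternal copy like Calcr, had deposited values of -0.98 ± 0.28 for RD-weaned females (adjusted p = 0.0929) and -0.74 ± 0.32 for HCD-weaned males (adjusted p = 0.536). In the other 2 deposited tables it had -0.09 and 0.02. The larger negative values of Asb4 therefore stood in the same pair of comparisons as those of Calcr, and neither it nor Sgce was called.

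In the Peg3 domain on chromosome 7, Usp29, a ubiquitin protease gene that starts beside Peg3, had -0.60 ± 0.25 for HCD-weaned males (adjusted p = 0.523), -0.49 ± 0.29 for HCD-weaned females (adjusted p = 0.482), -0.22 for RD-weaned males and -0.69 ± 0.28 for RD-weaned females (adjusted p = 0.555) of the deposited tables. The zinc finger gene Zim1, expressed from the maternal copy, had -1.04 ± 0.33 for HCD-weaned males (adjusted p = 0.266), -0.26 for HCD-weaned females, -0.10 with no p-value in RD-weaned males and -0.49 ± 0.25 for RD-weaned females (adjusted p = 0.808). All 3 genes of the domain were below 0 as read in both HCD-weaned tables, with Peg3 lowest. In both RD-weaned tables they also shared a sign, negative as read, with Peg3 furthest from 0.

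In the Dlk1-Dio3 domain on chromosome 12, the maternally expressed noncoding RNAs are transcribed in the same direction, and the deposited values were not alike. Rian, the host of a large set of small nucleolar RNAs, had -0.05, -0.05, 0.02 and -0.36, in the order HCD-weaned males, HCD-weaned females, RD-weaned males and RD-weaned females. Mirg, a host of microRNAs, had -0.07, -0.33, 0.25 and -0.32 in the deposited tables. In HCD-weaned females, where Meg3 fell by 0.66 on the log2 scale, the deposited value of Rian was -0.05 ± 0.19 (adjusted p = 0.976) at a mean count of 10359. With the length trend removed the pair stood at -0.18 for Meg3 and 0.27 for Rian, and Meg3 was no longer called. The difference between them was not tested. Of the paternally expressed genes beside Dlk1, Rtl1, a retrotransposon-derived gene, had -0.52, -0.14, -0.18 and -0.26, and Dio3, the deiodinase that inactivates thyroid hormone, had 0.28, 0.08, 0.58 and 0.03, at mean counts of 4.54 to 40.4.

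The Prader-Willi and Angelman domain on chromosome 7 had no called gene and values of both signs. Ndn had 0.55 ± 0.27 for HCD-weaned males (adjusted p = 0.597), 0.59 ± 0.21 for HCD-weaned females (adjusted p = 0.123), 0.20 ± 0.32 for RD-weaned males (adjusted p = 1.00) and -0.51 ± 0.24, with no p-value, in RD-weaned females of the deposited tables. Its neighbour Magel2, a ubiquitin ligase regulator of the same protein family, had -1.0 ± 0.29 for HCD-weaned males (adjusted p = 0.202) and -0.04, -0.06 and -0.30 in the other deposited tables. Ndn and Magel2 thus had opposite signs in HCD-weaned males. Ube3a, the ubiquitin ligase gene of Angelman syndrome, had -0.67 ± 0.30 for HCD-weaned males (adjusted p = 0.541) and between -0.31 and 0.04 elsewhere in the deposited tables. Snrpn (-0.22 to 0.31), Mkrn3 (0.08 to 0.37) and Peg12 (-0.22 to 0.16) made up the rest.

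**Figure D3:**
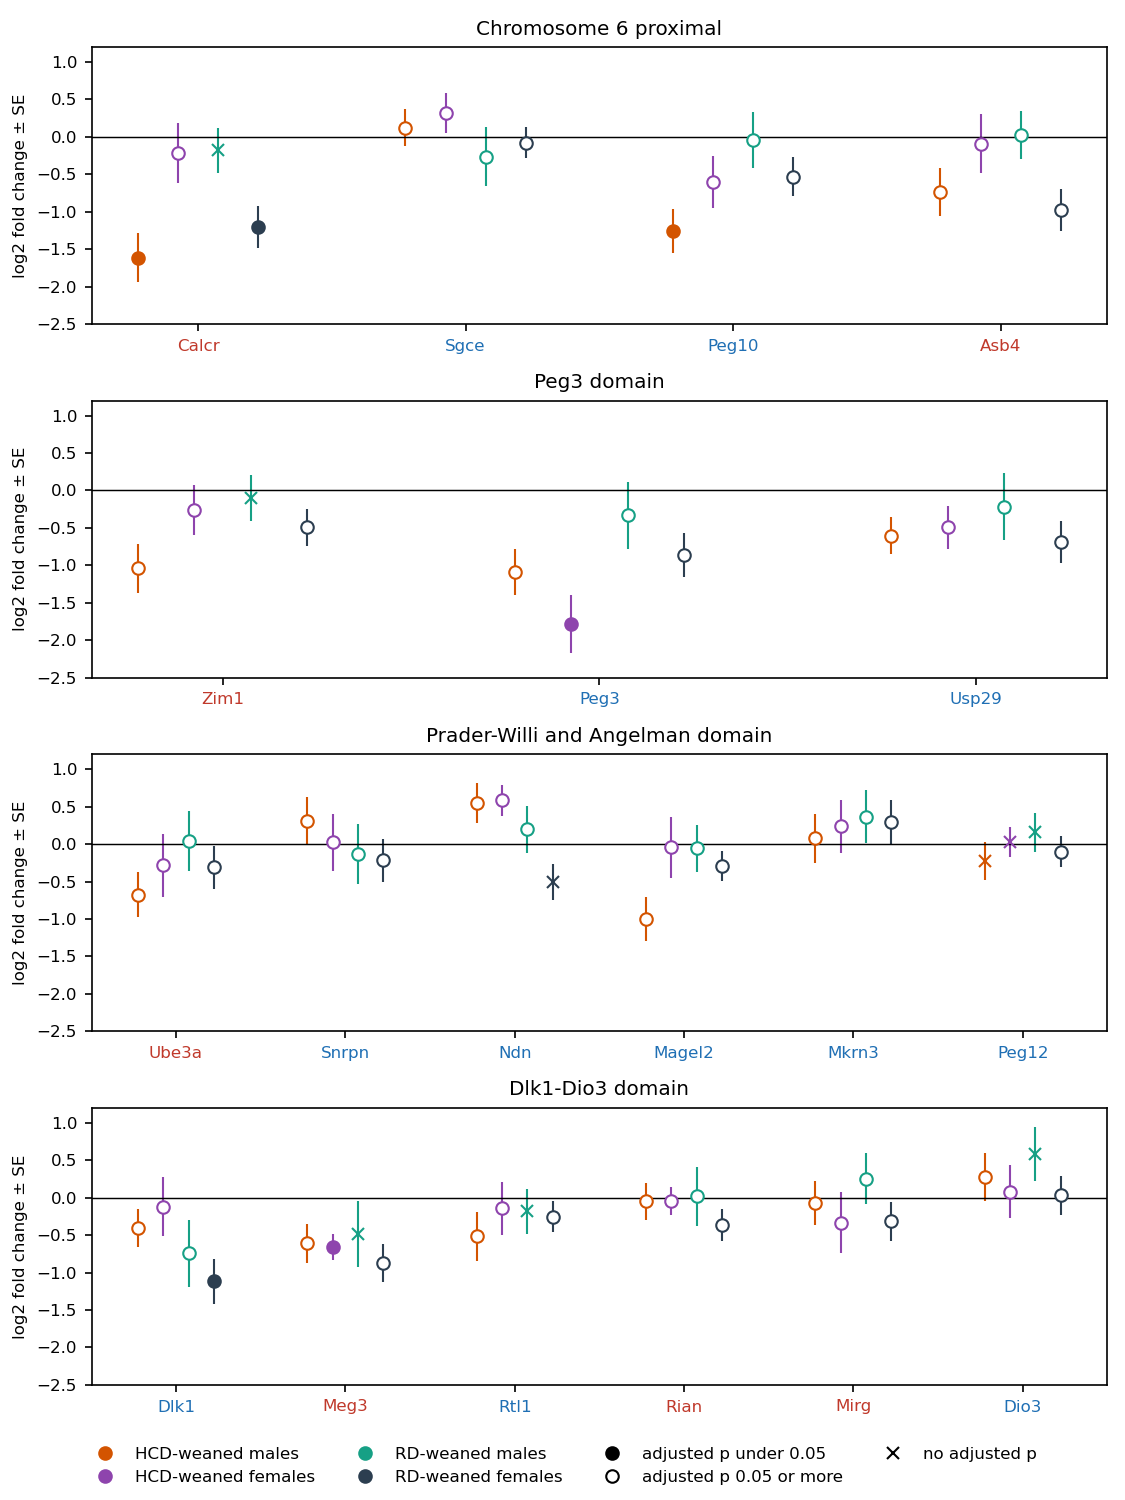
Log2 fold change with its standard error for the genes of 4 imprinted clusters, in order of position along the chromosome, with 1 colour for each comparison; blue names are paternally, red maternally expressed, and filled, open and crossed symbols are as in the legend. In HCD-weaned males and RD-weaned females Calcr, Peg10 and Asb4 lie lower than Sgce, while in RD-weaned males Asb4 (0.02) and Peg10 (-0.05) lie near 0; all 3 genes of the Peg3 domain lie below 0 as read, and Ndn and Magel2 lie on opposite sides of 0 for HCD-weaned males.

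The distal chromosome 7 genes had no call. The growth factor gene Igf2 had -0.71 ± 0.25 for HCD-weaned males (adjusted p = 0.372), -0.51 for HCD-weaned females, -0.07 for RD-weaned males and 0.34, with no p-value, in RD-weaned females of the deposited tables. The antisense RNA Kcnq1ot1 had -0.60 ± 0.30 for HCD-weaned males (adjusted p = 0.603) and -0.96 ± 0.44 for HCD-weaned females (adjusted p = 0.299), with deposited values of -0.05 and -0.47 in the RD-weaned tables. Cdkn1c, a cell cycle inhibitor, was above 0 in all 4 deposited tables (0.12, 0.28, 0.62 and 0.49). Of genes outside these clusters, the transcription factor gene Plagl1 had -0.83 ± 0.32 for HCD-weaned males (adjusted p = 0.457) and between -0.18 and 0.24 in the other deposited tables. Mcts2, a single-exon gene inside H13, had 0.59 ± 0.29 for HCD-weaned males (adjusted p = 0.595), and Trappc9, a vesicle trafficking subunit gene, 0.59 ± 0.26 for HCD-weaned females (adjusted p = 0.274). Those were the highest deposited values of any listed gene in these 2 comparisons.

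Other genes with an absolute value of 0.5 or more in a deposited table were Zdbf2 (-0.50 for HCD-weaned males, -0.52 for RD-weaned females), Nap1l5 (-0.57), Impact (-0.56) and Grb10 (-0.54) for RD-weaned females, and Ddc (-0.72) for RD-weaned males. None of these was called. The remaining genes (Peg13, Mest, Airn, Igf2r, Copg2, Gnas, Blcap and Inpp5f) stayed between -0.39 and 0.36 in every deposited table.

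The maternal diet effects were also set against each other between comparisons, as the difference of 2 deposited fold changes with both standard errors. No listed gene passed an adjusted p of 0.05: 0 of 30 between HCD-weaned and RD-weaned males (0.00775% of all genes), 0 of 36 between HCD-weaned and RD-weaned females (0.00685%), 0 of 38 between the sexes of HCD-weaned offspring (0%) and 0 of 28 between the sexes of RD-weaned offspring (0.00791%). At an unadjusted p under 0.05 these differences numbered 3, 3, 1 and 1, and the smallest adjusted p was 0.978, 0.831, 1.00 and 0.999. The effect on Calcr was 1.40 lower on the log2 scale in HCD-weaned males than in HCD-weaned females (difference -1.40, 95% interval -2.40 to -0.39, adjusted p = 1.00). Peg10 had a difference of -1.21 between HCD-weaned and RD-weaned males (-2.13 to -0.29, adjusted p = 0.978), and Nnat one of 0.77 (0.11 to 1.44, adjusted p = 0.978). For Nnat between the sexes of RD-weaned offspring the difference was 0.30 (-0.33 to 0.93). So a call in one sex or postnatal diet and not in another was not shown to be a difference between them with the signs as read here, and these intervals are wide enough to hold large ones. Between HCD-weaned and RD-weaned females that rests on the direction read for the RD-weaned table: with its sign turned, 3 genes (Meg3, Nnat and Peg3) passed in place of 0. How many of all genes then passed is not given here.

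Longer transcripts had lower fold changes in both HCD-weaned comparisons, and the imprinted genes followed that trend. Across all genes with an annotated transcript the Spearman correlation of the deposited Wald statistic with length was -0.545 for HCD-weaned males (14831 genes), -0.439 for HCD-weaned females, 0.0819 for RD-weaned males and -0.22 for RD-weaned females. Over the imprinted genes alone it was -0.618 (38 genes), -0.534, -0.128 and -0.308. Genes share their libraries and are not independent replicates, so these are descriptions. In HCD-weaned males, 18 of 21 imprinted genes at or above the list's median length of 3954 bases were below 0, with a median of -0.52, against 6 of 17 shorter ones, with a median of 0.12. All genes tested had -0.20 and 0.10 on either side of that length in the same table. In HCD-weaned females the corresponding medians were -0.17 for 21 longer and 0.08 for 17 shorter imprinted genes, and -0.15 and 0.14 over all genes. RD-weaned females had negative medians on both sides, -0.34 and -0.22, where all genes had -0.06 and 0.04.

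**Figure D4:**
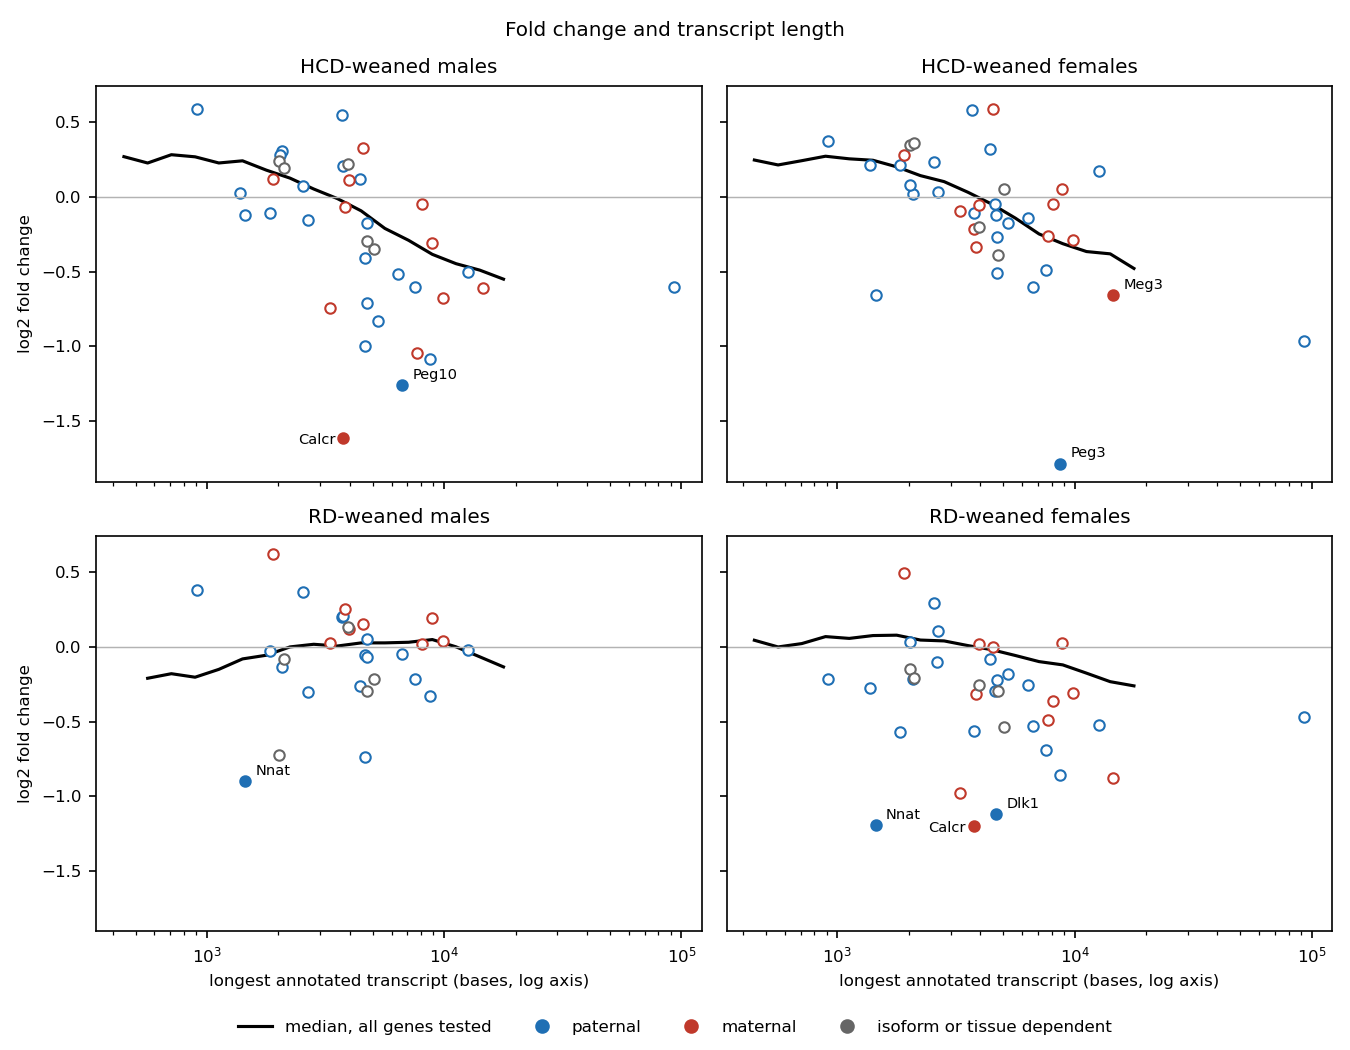
Log2 fold change of the imprinted genes (points, coloured by expressed copy, filled where the adjusted p is under 0.05) against the longest annotated transcript in bases (log axis), with the median of all genes tested in each length bin as a line. In the HCD-weaned panels the line falls from above 0 at short transcripts to below 0 at long ones; Meg3 lies closer to it than Peg3 does, Calcr in HCD-weaned males lies far below it, and so does Nnat, a short gene, in RD-weaned offspring.

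With the length trend removed, the median over the imprinted genes was -0.14 for HCD-weaned males, -0.00 for HCD-weaned females, 0.01 for RD-weaned males and -0.26 for RD-weaned females. Among the called genes, Calcr (3763 bases) moved little, from -1.61 to -1.57 for HCD-weaned males and not beyond rounding at -1.20 for RD-weaned females. Nnat, at 1448 bases among the shorter genes, went from -1.19 to -1.25 for RD-weaned females and from -0.66 to -0.89 for HCD-weaned females, where it then passed the threshold (adjusted p = 0.0455). Meg3, at 14548 bases, went from -0.66 to -0.18 for HCD-weaned females and no longer passed (adjusted p = 0.346). Peg3 (8694 bases) went from -1.78 to -1.44 for HCD-weaned females (adjusted p = 0.0689), and Peg10 (6667 bases) from -1.26 to -0.99 for HCD-weaned males (adjusted p = 0.213). For Nnat in RD-weaned males the adjusted p became 0.0703 and for Dlk1 in RD-weaned females 0.0623. The 3 calls that passed with and without the trend were Calcr in HCD-weaned males and Calcr and Nnat in RD-weaned females. Dividing the statistics by their robust spread over all genes put Calcr (adjusted p = 0.0573) and Peg10 (0.210) in HCD-weaned males and Meg3 (0.0984) in HCD-weaned females above the threshold of 0.05. Adjusting over all genes with a p-value did so for Nnat in RD-weaned males (0.0662) and Dlk1 in RD-weaned females (0.0590). The robust spread was 1.17 for HCD-weaned males and 1.12 for HCD-weaned females, so dividing by it lowered their statistics. It was 0.85 for RD-weaned males and 0.96 for RD-weaned females, where dividing raised the statistics and could remove no call. Only the calls of Calcr and Nnat in RD-weaned females held under every alternative in which the gene was tested. Not every alternative could remove a call there, so this does not rank them above the HCD-weaned calls.

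Marker genes of the dissected region also had values below 0, in part in the same comparisons. Of 12 transcription factor genes of hypothalamic neurons, all 7 with an adjusted p were below 0 for HCD-weaned males (median -0.93, 2 called) and all 6 for RD-weaned females (median -0.31, 0 called), in the deposited tables. Calcr was called in the same 2 comparisons. At an unadjusted p under 0.05 were 6 of these 7 transcription factor genes in HCD-weaned males and 0 of the 6 in RD-weaned females. In HCD-weaned females 3 of 4 were below 0 and in RD-weaned males 1 of 2. Hypothalamic peptide genes were below 0 in 9 of 12 for HCD-weaned males (median -0.56), 5 of 11 for HCD-weaned females (median 0.03), 8 of 9 for RD-weaned males and 9 of 11 for RD-weaned females (median -0.22 in both RD-weaned tables). The summed level of the transcription factor genes was 15.3 to 19.2 CPM, and no gene of that list was at 0 in a deposited table. Markers of neighbouring regions differed in sign: in RD-weaned females all 8 thalamus genes were below 0 (median -0.60, 2 called), while cortex and hippocampus genes (6 of 7), choroid plexus genes (7 of 8) and striatum genes (8 of 8) were above 0, with medians of 0.94, 0.56 and 0.40. In RD-weaned males all 8 thalamus genes were above 0 (median 0.41, 0 called). For HCD-weaned males 5 of the 8 thalamus genes were above 0 (median 0.13), and for HCD-weaned females 4 of 8 (median 0.001). Striatum genes had a median of -0.68 for HCD-weaned males (8 of 8 below 0), as did genes of meninges and fibroblasts (9 of 10 below 0). Summed levels across the 4 deposited tables were 678 to 1115 CPM for thalamus, 365 to 666 for cortex and hippocampus, 1064 to 1965 for striatum, 4057 to 5253 for choroid plexus and 178 to 216 for meninges and fibroblasts. Pituitary genes (6 listed) summed to 24.1 CPM in RD-weaned females, where none had an adjusted p. In HCD-weaned males, HCD-weaned females and RD-weaned males they summed to 1.57, 0.93 and 0.12. Microglia genes were above 0 in 6 of 6 for RD-weaned females (median 0.35). Astrocyte genes were below 0 in 5 of 6 there (median -0.23, 1 called), and oligodendrocyte genes had a median of 0.23. The part of tissue makeup in the values of the imprinted genes was not tested.

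Other imprinted genes and genes next to the clusters gave no call. Of 50 further imprinted genes, 1 had no row; 44, 42, 38 and 43 were tested by the authors, with 0 called in each table (4, 5, 1 and 9 at an unadjusted p under 0.05), and 25, 23, 23 and 22 were below 0, with medians of -0.11, -0.01, -0.14 and -0.03. In RD-weaned females, where the 42 genes had 30 of 37 below 0, the further list had 22 of 43. Of 18 genes beside the chromosome 6 and Dlk1-Dio3 clusters that are not known to be imprinted in brain, 16, 15, 14 and 14 were tested, 0 were called (2, 0, 0 and 1 at an unadjusted p under 0.05), and 3, 5, 7 and 5 were below 0, with medians of 0.09, 0.13, 0.01 and 0.06. The 2 in HCD-weaned males, named here after their values were seen, were Samd9l (-0.70) and Col1a2 (-0.57), both beside the chromosome 6 cluster. Among these 18, the other tested genes beside that cluster were above 0 in the same comparison: Bet1 (0.03), Gng11 (0.10), Hepacam2 (0.02), Pdk4 (0.005), Dync1i1 (0.24) and Slc25a13 (0.09). Imprinted genes of the further list that lie near the cluster are not counted there. The 4 of the further list at an unadjusted p under 0.05 in HCD-weaned males were Ago2 (-0.76), Ppp1r9a (-0.64), Dcn (-0.59) and Tssc4 (0.56).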

How the data were processed

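RNA of 25 hypothalamus samples was prepared with a stranded mRNA kit, per the labels' protocols. Per the submitters' processing notes the authors used DESeq and the build mm10, and the result columns are named as DESeq2 names them, per the file headers. The aligner, counter, strand setting and annotation are, for this series, not given in the sources used here, so genes that overlap another (Nnat and Blcap, Snrpn and Snurf, Kcnq1ot1 and Kcnq1, Mest and Copg2, Peg13 and Trappc9, Mcts2 and H13) are uncertain. Of the deposited files, the authors' 4 result tables were used. The mean normalized count, a signal averaged over the libraries of a comparison, and the log2 fold change with its standard error are as deposited. The Wald statistic, a score, is the deposited fold change over its standard error, and the p-value and adjusted p-value are the authors' own. The fold changes appear to be shrunken: in the deposited table of RD-weaned females the median absolute log2 value was 0.05 below a mean of 10 and 0.15 at means from 100 upward. The other 8 files hold 48 library columns whose names match no label; they were not used. The files for RD-weaned males have 6 such columns where the labels list 7 samples. The mean normalized counts of a table summed to between 15402649 and 26951335; depth per sample is not given here.

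Genes with an adjusted p under 0.05 count as called. CPM values were computed from the mean normalized counts, and lengths are those of the longest GENCODE transcript (GRCm38). Differences between 2 tables were scaled by their combined standard error (root of summed squares), referred to a normal distribution and adjusted by Benjamini-Hochberg over all genes in both tables; the shrinkage can make this conservative. The length trend was a cubic spline on log length over all tested genes with an annotated length. It was fitted separately to the log2 fold change, for the values given, and to the Wald statistic, for the adjusted p. Python 3.11.15, numpy 2.4.6, pandas 2.3.3, scipy 1.17.1 and matplotlib 3.10.9 were used, and the scripts were tested on simulated data. The 42 genes and all other lists were chosen with earlier results of these data known. Full statistics are given for genes called in any table, for those with an unadjusted p under 0.05 in 2 or more, and for Calcr, Peg10, Sgce, Dlk1 and Meg3; values for genes with an absolute log2 fold change of 0.5 or more at a mean count of at least 10 and for their cluster members; the rest by range. Alternatives were other sets of genes for the adjustment, a threshold of 0.10, removal of length and GC trends, centring, division by a robust spread and a turned sign.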

Additional observations from a re-analysis of the deposited data

How the results depend on the processing

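Of 2 genes called in HCD-weaned males, 1 (Calcr) passed with the length trend removed and 1 (Calcr) with length and GC removed, 0 with statistics divided by their robust spread (Calcr then had an adjusted p of 0.0573 and Peg10 0.210), and 1 (Peg10) among genes with a mean count of at least 100, which leaves Calcr untested. Over all genes, the 25 calls in HCD-weaned males became 14, 15, 3 and 16 under these settings, in the same order. Of 2 called in HCD-weaned females (Meg3 and Peg3), 1 (Peg3) passed with the robust spread. With length removed, or length and GC, 1 gene passed, Nnat, which is neither of them. All genes there went from 229 calls to 56 with the robust spread, 61 with length removed and 56 with length and GC removed. The single call in RD-weaned males, Nnat, became 0 with length removed, with length and GC removed, and with p-values adjusted over all genes that have one (adjusted p = 0.0662). The 11 calls over all genes there became 10, 7 and 9 in that order. In RD-weaned females a threshold of 0.10 gave 5 genes in place of 3, adding Asb4 and Meg3, and Dlk1 had an adjusted p of 0.0590 when adjusted over all genes with a p-value. Calls over all genes there went from 52 to 90 at 0.10 and to 35 when adjusted over all genes with a p-value. Turning the sign of the RD-weaned table gave 3 genes (Meg3, Nnat and Peg3) that differed between HCD-weaned and RD-weaned females in place of 0. The number over all genes with the sign turned is not given here, so nothing particular to the imprinted genes is read from it. No called gene changed its sign under the scaling and trend alternatives. The median over the genes moved by no more than the median standard error of their fold changes in each comparison. The cause was not tested where it is not the number of genes adjusted over. No paired analysis was possible because the library columns match no label; count tests, other normalizations and leaving out replicates were not run for that reason. At mean counts below 10 (H19, Phlda2 and Snurf in all 4 tables, Peg12 in 3, Dio3 and Airn in RD-weaned males) the authors gave no adjusted p, so no difference could be called at that depth.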
